A study of Mus musculus with 96 samples.

Results

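The 10 genes described here are members of the TGF-beta pathway: the ligand gene Tgfb1, the signalling receptor genes Tgfbr1 and Tgfbr2, the co-receptor genes Tgfbr3 and Eng, and the Smad genes Smad2, Smad3, Smad5, Smad4 and Smad7. They were chosen by symbol from a table of 49466 genes, and each symbol stood in the table with 1 identifier. TGF-beta binds the type II receptor, which then phosphorylates the type I receptor. The type I receptor phosphorylates Smad2 and Smad3, which pair with the common partner Smad4 and enter the nucleus. Smad5 carries the related BMP signal, and Smad7 inhibits the receptors. TGF-beta is known as a brake on the expansion of early erythroid progenitors, and the protein of Tgfbr3 has been proposed as a surface marker that divides BFU-E.

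The data were read counts per gene from single cells of C57/Bl6J mouse fetal liver at embryonic day 14.5, made by Smart-seq2, which gives full-length cDNA from a sorted cell. Cells carrying lineage markers, Sca-1, CD16/32 or CD41 had been depleted with beads, and the remaining cells were sorted by Kit, CD71 and CD24 into 4 gates. BFUE, the burst-forming units, is the earliest gate and CFUE, the colony-forming units, the latest. The intermediate gates are named for 25 to 35% (called lower here) and 50 to 60% (upper) of CD71/CD24 expression. All groups share the strain, the age and the depletion, and the labels name no treatment and no engineered allele. All 96 wells stood on 1 plate, 24 per gate. A gate took up 3 whole columns of the plate, and position by column cannot be told apart from gate. Since the labels give neither animals nor pooling of embryos, a gate is treated as 1 sample of cells. Differences between gates are therefore given without a test and without a check in replicates.

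Of the 96 wells, 91 held 50000 or more reads and were kept: 23 BFUE, 21 of the lower and 24 of the upper intermediate gate, and 23 CFUE. Kept wells held 947458 to 3785903 reads in genes, and the 5 wells left out held 10596 to 16644. Levels are counts per 1000000 reads in genes (CPM), from the reads summed over the kept wells of a group unless a well is named. Intervals are exact 95% intervals of counting error only, since the reads carry no molecular identifiers. A well counted as having a gene at 10 or more reads. Wells with fewer reads, or 0, may still hold the transcript. At these depths 3 reads of a well's total correspond to 0.792 to 3.17 CPM, a figure that covers counting error alone.

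The BFUE gate held 8 wells with 1036 to 2202 CPM of Cd34, an antigen of stem and multipotent progenitors, and 15 wells with at most 5.16 CPM. They are called Cd34-high and Cd34-low BFUE. The summed level of 6 erythroid marker genes lay between 8.96 and 98.9 CPM in the Cd34-high wells, against 723 to 1919 CPM in the Cd34-low wells. Of the 7 neutrophil and monocyte markers, 6 reached 10 reads in a Cd34-high well, with Elane at 0, and their summed level was 350 to 7029 CPM in the Cd34-high wells, against 1.32 to 184 CPM in the Cd34-low wells. Of the 6 lymphoid markers, 4 did so, with Cd3e and Dntt at 0, at 0.576 to 1579 CPM in the Cd34-high wells, against 0 to 5.58 CPM in the Cd34-low wells. The erythroid label was thus not borne out in the 8 Cd34-high wells, and the CFUE over BFUE ratios of the measured members are also given against Cd34-low BFUE alone. The CFUE well D10 also stood apart, with the fewest reads of all kept wells and no member at 10 reads.

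Tgfbr3, which encodes betaglycan, the co-receptor that presents TGF-beta ligands to the signalling receptors, was the member detected in the most wells over the 4 groups other than Cd34-high BFUE. Its summed level was 45.5 CPM in Cd34-high BFUE, 108 CPM in Cd34-low BFUE, 69.6 CPM in the lower intermediate gate, 53.4 CPM in the upper one and 43.6 CPM in CFUE. The wells ran from 0 to 311 CPM with a median of 123 CPM in Cd34-low BFUE, from 5.15 to 163 CPM with a median of 68.8 CPM in the lower gate, from 12.7 to 144 CPM with a median of 47.4 CPM in the upper gate, and from 0.677 to 88.9 CPM with a median of 39.3 CPM in CFUE. The medians thus stepped down along the 4 groups, but the interquartile ranges of neighbouring groups overlapped, as did the full ranges.

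Detection of Tgfbr3 was near complete from Cd34-low BFUE to the upper intermediate gate. It reached 10 reads in 14 of 15 Cd34-low BFUE wells, 20 of 21 lower intermediate wells, 24 of 24 upper intermediate wells and 18 of 23 CFUE wells. The exceptions were well G1 of Cd34-low BFUE with 0 reads, well G4 of the lower gate with 5.15 CPM, and the CFUE wells A10, D10, G11, G12 and H11 with 0.677 to 1.35 CPM. The CFUE wells therefore held a small set with almost no Tgfbr3 beside a larger set between 17.4 and 88.9 CPM.

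**Figure D1:**
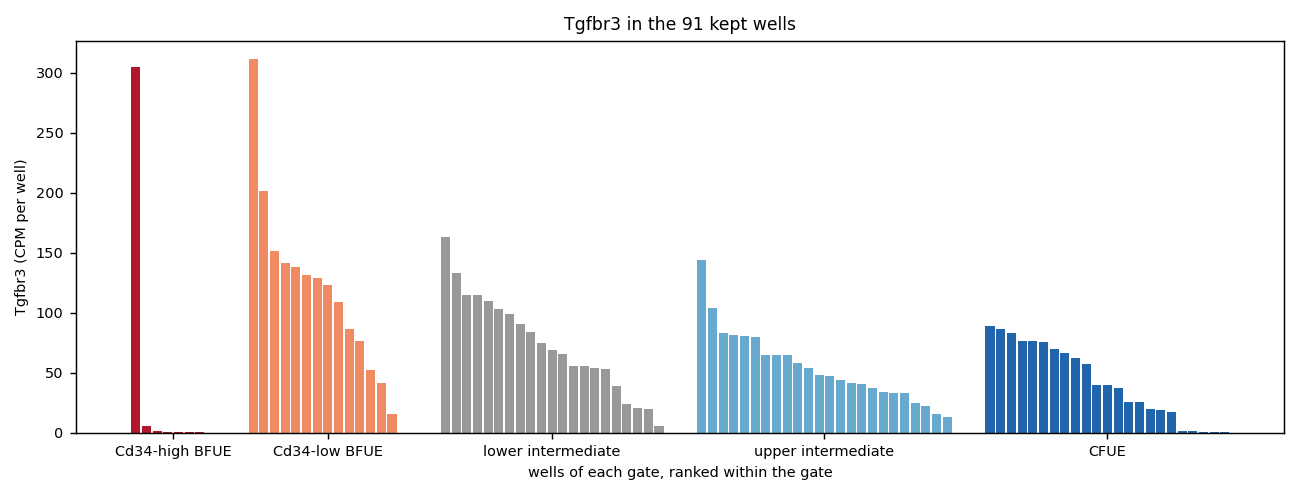
Tgfbr3 in each of the 91 kept wells (bars, CPM per well), ranked within each group along the x axis. A single Cd34-high BFUE well reaches 305 CPM while the others stay at or under 5.56 CPM, and the Cd34-low BFUE, intermediate and CFUE wells step down in median through 123, 68.8, 47.4 and 39.3 CPM.

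Within the BFUE gate, Tgfbr3 separated the wells almost as the Cd34 split did, with 1 exception on each side. The Cd34-high wells B1, B2, C1, C2, E2, F1 and H2 held 0.725, 1.47, 0.668, 0, 0.64, 5.56 and 0.701 CPM, while well E3 held 305 CPM. Well E3 had 1108 CPM of Cd34, 1918 CPM of Mpo, a granule enzyme of the neutrophil line, 492 CPM of Gata2, a transcription factor of early progenitors, and 5.76 CPM of Gata1, the erythroid master regulator. That well alone gave 97.2% of the Tgfbr3 reads of its group. With it, Tgfbr3 was 2.38-fold lower in Cd34-high than in Cd34-low BFUE (2.17 to 2.62). Without it, the other 7 wells summed to 15 reads or 1.46 CPM, 74-fold lower (44.8 to 132), and in plate rows E to H, which hold well E3, the Cd34-high over Cd34-low ratio was 1.02.

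In CFUE, Tgfbr3 was 2.03-fold lower than in the whole BFUE gate (1.92 to 2.16), at 43.6 against 88.7 CPM. Set against Cd34-low BFUE alone it was 2.49-fold lower (2.34 to 2.65). Over the pooled wells, the lower intermediate gate was 1.56-fold lower than Cd34-low BFUE (1.47 to 1.65), the upper gate 1.3-fold lower than the lower one (1.23 to 1.39), and CFUE 1.22-fold lower than the upper gate (1.14 to 1.31). The first step lay close to 1.5-fold: leaving out any of 5 wells took it under, with the lowest value, 1.37-fold, reached without the Cd34-low well C3, which holds the most Tgfbr3 of that group. Scaling by TMM or by DESeq2 size factors also took it under 1.5-fold (ratio 0.682 with DESeq2). The steps differed between plate rows. In rows A to D the ratios of each gate over the one before were 0.627, 0.837 and 0.59 in that order. In rows E to H they were 0.673, 0.674 and 1.21, so the first step was under 1.5-fold there and the last one had the other direction.

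Within the 15 Cd34-low BFUE wells, Tgfbr3 was set beside 10 genes of erythroid stage as a description. Its Spearman rho was -0.62 with Cd24a, which encodes an antigen used for the sort, -0.4 with Tfrc, which encodes the CD71 antigen, and 0.46 with Myb, a transcription factor of early progenitors. The first was the lowest and the last the highest of 60 such pairs over the members with enough reads. With the other stage genes it was -0.27 (Klf1), -0.12 (Zfp36l2), -0.09 (Gata1), -0.03 (Kit), 0.07 (Epor), 0.13 (Gata2) and 0.29 (Nr3c1). The wells share 1 gate, and these values carry no test.

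The ligand gene Tgfb1 was low throughout. Its summed level was 8.02, 3.66, 4.25, 3.57 and 1.41 CPM from Cd34-high BFUE through Cd34-low BFUE, the lower and the upper intermediate gate to CFUE. It reached 10 reads in 2 of 8, 3 of 15, 4 of 21, 4 of 24 and 1 of 23 wells in that order, and no well exceeded 28.2 CPM. Its CFUE over BFUE ratio of 0.28 (0.201 to 0.385) rested on 50 and 192 reads, and at under 10 CPM in every group Tgfb1 is not counted among the measured genes below.

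Both signalling receptors were found in fewer wells than the co-receptors Tgfbr3 and Eng over the whole plate, and they differed in where. Tgfbr1, the type I receptor (ALK5), was at 29, 13.2, 15.2, 8.79 and 15.1 CPM from Cd34-high BFUE to CFUE, with 10 reads in 4 of 8, 8 of 15, 9 of 21, 9 of 24 and 10 of 23 wells. In CFUE it was at 15.1 CPM, against 18.1 CPM in BFUE, a ratio of 0.83 (0.74 to 0.93), with 0.587 in rows A to D and 1.42 for rows E to H. The 10 CFUE wells with Tgfbr1 reached up to 68.4 CPM while the median well had 0. Tgfbr1 was thus within 1.5-fold between the end gates, with a dip to 8.79 CPM in the upper intermediate gate, 1.73-fold lower than the lower gate (1.49 to 2). That dip was seen in rows E to H alone, where the upper over lower ratio was 0.213. In rows A to D the ratio was 1.36, and without the lower-gate well G4 the difference was under 1.5-fold, at a ratio of 0.685. The ratio of CFUE over the upper gate was 1.71 (1.49 to 1.98), and leaving out any of 3 wells took it under 1.5-fold (lowest 1.45, without the CFUE well G12). It was 1.13 in rows A to D and 3.44 for rows E to H. The Cd34-high over Cd34-low ratio was 2.2, with 2.77 in rows A to D and 1.38, under 1.5-fold, for rows E to H.

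Tgfbr2, the type II receptor that binds TGF-beta first, had its highest summed level in the Cd34-high wells. It was at 58.1 CPM in Cd34-high BFUE, where 5 of 8 wells held 28.8 to 183 CPM and the other 3 held 0. It was at 9.23 CPM in Cd34-low BFUE with 4 of 15 wells, at 14.6 CPM in the lower gate with 6 of 21, at 4.67 CPM in the upper gate with 3 of 24, and at 3.5 CPM in CFUE with 3 of 23. The median well held 0 in each of these 4 groups. The Cd34-high wells exceeded the Cd34-low wells 6.29-fold (5.43 to 7.32), or 4.17-fold without well F1, which holds the most Tgfbr2. CFUE was 7.02-fold lower than BFUE (5.82 to 8.54), and 12.6-fold lower without the CFUE well H11, the highest of that gate at 39.3 CPM. Against Cd34-low BFUE, where both groups were under 10 CPM, CFUE was 2.64-fold lower (2.12 to 3.31) on 124 and 242 reads.

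Between the intermediate gates Tgfbr2 was 3.13-fold lower in the upper gate (2.62 to 3.76), and 5.72-fold lower without the upper-gate well B8. The upper over lower ratio was 0.75 in rows A to D, under 1.5-fold, and 0.00325 for rows E to H. The ratio of the lower gate over Cd34-low BFUE was 1.58 (1.35 to 1.86). That value depended on single wells: leaving out any of 15 took it under 1.5-fold, with 1.15 without well G6 of the lower gate and 2.26 without well A2 of Cd34-low BFUE. It was 1.05 in rows A to D and 2.61 for rows E to H.

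Eng encodes endoglin, the other co-receptor, a protein of endothelial cells and early blood progenitors that also binds BMP ligands. Its summed level was 179 CPM in Cd34-high BFUE, 45.7 CPM in Cd34-low BFUE, 57.2 CPM in the lower and 35.8 CPM in the upper intermediate gate, and 39.3 CPM in CFUE. The Cd34-high wells ran from 0.668 to 507 CPM with a median of 121 CPM, and the Cd34-low wells from 0 to 164 CPM with a median of 43.3 CPM. These interquartile ranges lay apart, while those of the other groups overlapped between neighbours in the order of medians. The Cd34-high over Cd34-low ratio was 3.91 (3.64 to 4.2), and 2.94 without well H2, the highest. It was 2.1 in rows A to D and 5.56 for rows E to H. Wells with 10 reads numbered 7 of 8, 13 of 15, 14 of 21, 14 of 24 and 12 of 23 from Cd34-high BFUE to CFUE.

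CFUE had 2.22-fold less Eng than the whole BFUE gate (2.09 to 2.37). Against Cd34-low BFUE it was 1.16-fold lower (1.07 to 1.26). The upper intermediate gate was 1.6-fold lower than the lower one (1.49 to 1.72), and 1.2-fold lower without the lower-gate well C4, which held 338 CPM. Leaving out any of 3 lower-gate wells (C4, C5 or H6) took that difference under 1.5-fold, and the ratio was 0.704 in rows A to D and 0.53 for rows E to H. Eng shares 61 bases (1.5% of its exons) with Fpgs on the opposite strand. Fpgs had 23233 reads in the kept wells, against 7815 for Eng. The strand setting of the counts is not given in the sources used here, and the part of Fpgs reads in the Eng counts was not tested. Of 8 endothelial markers, 4 were at 0 reads in the Cd34-high wells, among them Cdh5 and Kdr, and the others (Pecam1, Tek, Esam and Emcn) reached 10 reads in a well. Their summed level was 3.2 to 1230 CPM in the Cd34-high wells, against 0 to 158 CPM in the Cd34-low wells, and its part in the Eng result was not tested.

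The promoters of Eng and Tgfbr2, the receptor genes with the largest Cd34-high over Cd34-low ratios, are shown because both genes had a higher summed level in Cd34-high BFUE and because ETS family factors are known to act on both. The sequences are the 250 bases before the RefSeq start (GRCm38.p6), printed 5′ to 3′ on the strand of the gene, with the ETS core GGAAG or its reverse complement CTTCC in capitals.
Eng, chr2:32646345-32646594, plus strand: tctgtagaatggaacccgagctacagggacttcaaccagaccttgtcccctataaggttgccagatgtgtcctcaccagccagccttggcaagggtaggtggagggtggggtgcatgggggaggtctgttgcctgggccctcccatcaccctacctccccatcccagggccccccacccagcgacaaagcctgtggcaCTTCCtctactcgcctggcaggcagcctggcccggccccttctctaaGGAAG
Tgfbr2, chr9:116175364-116175613, minus strand: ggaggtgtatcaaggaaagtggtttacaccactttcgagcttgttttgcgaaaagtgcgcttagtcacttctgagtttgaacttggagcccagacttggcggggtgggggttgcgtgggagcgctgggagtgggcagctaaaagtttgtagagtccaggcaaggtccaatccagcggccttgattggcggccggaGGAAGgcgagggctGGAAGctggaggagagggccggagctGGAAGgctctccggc
The Eng window holds 2 matches on either strand and the Tgfbr2 window 3, of which the capitals mark each. This motif is common, with a match in 64.1% of 32851 promoter windows of this length. The motif GATAA, searched on both strands as well (TTATC), is in neither window and in 22.6% of all windows, so no overlap between the motifs arises. Of the 10 genes, 6 had a promoter in the RefSeq table, and Tgfbr3, Smad2, Smad4 and Smad7 did not. In the first listed promoter of the others, ETS core matches numbered 2 for Smad3, 1 each for Tgfb1 and Smad5, and 0 for Tgfbr1. Of these genes, Smad3 was lower in Cd34-high than in Cd34-low BFUE, while Tgfbr1 and Smad5 were higher. Whether ETS factors had a part in any of these levels was not tested.

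**Figure D2:**
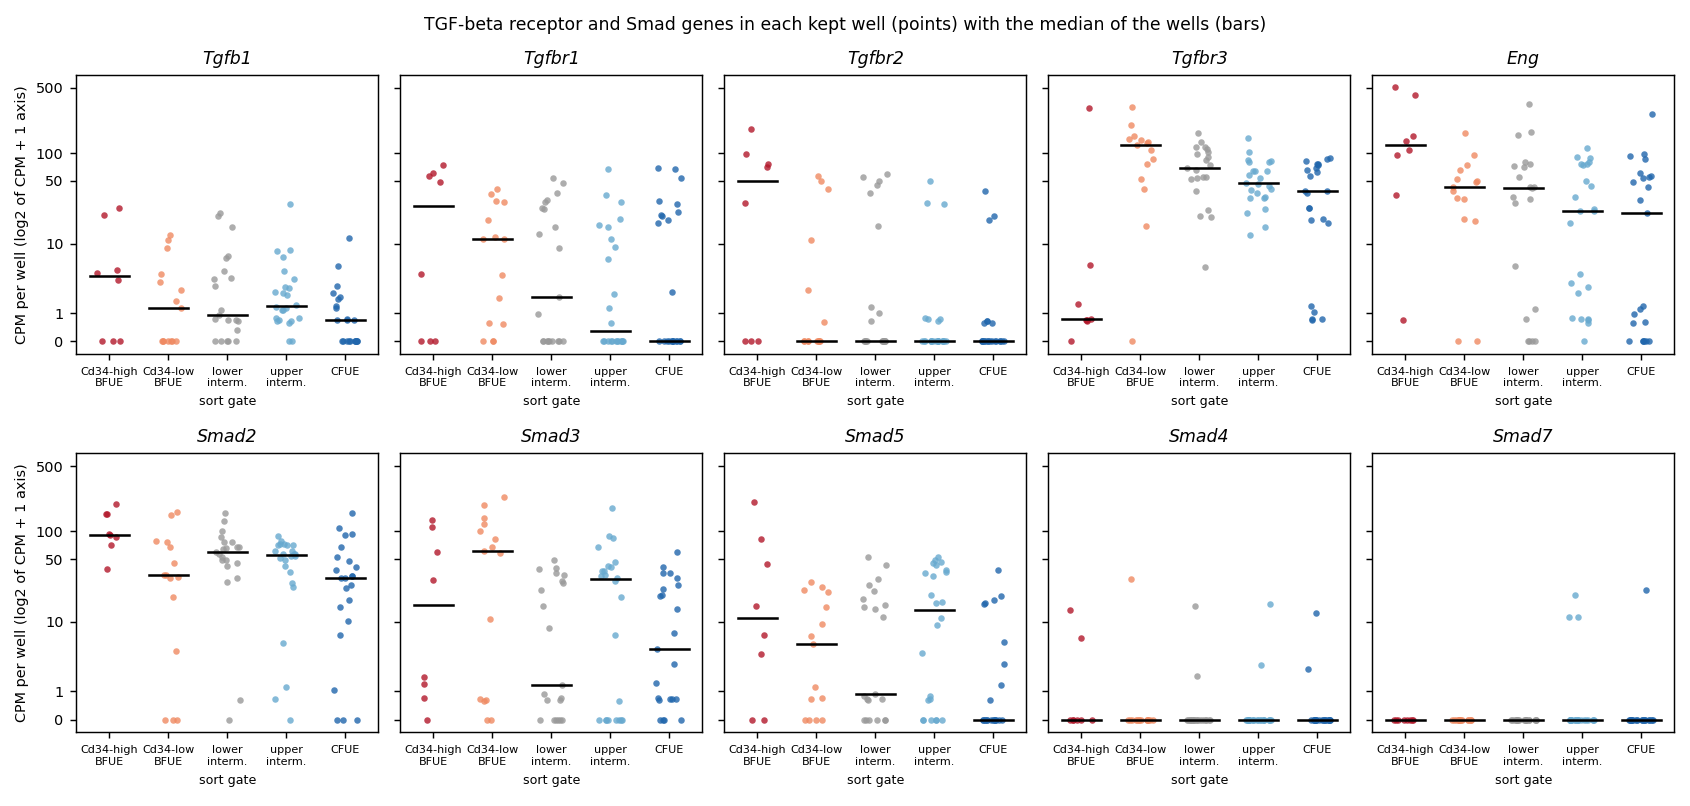
Each panel plots 1 gene, with CPM per well on a log2 of CPM plus 1 axis, points for the kept wells of the 5 groups and bars for medians. Tgfbr2 and Eng are highest in Cd34-high BFUE (medians 49.6 and 121 CPM), Tgfbr3 and Smad3 in Cd34-low BFUE (medians 123 and 61 CPM), and Smad4 and Smad7 are at 0 in nearly all wells.

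Among the receptor-regulated Smads, Smad2, which carries the TGF-beta and activin signal, was the most evenly spread. It was at 113, 46.9, 60.0, 48.2 and 40.1 CPM from Cd34-high BFUE to CFUE. All 8 Cd34-high wells held it, from 39.1 to 195 CPM, and 11 of 15, 19 of 21, 20 of 24 and 19 of 23 wells of the next groups did. The Cd34-high over Cd34-low ratio was 2.4 (2.22 to 2.6). In CFUE Smad2 was 1.68-fold lower than in BFUE (1.58 to 1.8), but 1.17-fold lower than in Cd34-low BFUE (1.08 to 1.26). The CFUE over BFUE ratio was 0.463 in rows A to D and 0.677, under 1.5-fold, for rows E to H. The CFUE over upper intermediate ratio of 0.832 (0.775 to 0.893) was 0.44 in rows A to D and 1.43 for rows E to H.

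Smad3, the close relative of Smad2 and its partner in the same signal, had another pattern. It was at 42.3 CPM in Cd34-high BFUE, 72.2 CPM in Cd34-low BFUE, 16.7 CPM in the lower gate, 32.0 CPM in the upper gate and 14.5 CPM in CFUE. Wells with 10 reads numbered 4 of 8, 10 of 15, 9 of 21, 15 of 24 and 11 of 23. The Cd34-low wells ran from 0 to 234 CPM with a median of 61 CPM, and the CFUE wells from 0 to 60.4 CPM with a median of 4.67 CPM. CFUE was 4.33-fold lower than BFUE (3.94 to 4.78) and 4.98-fold lower than Cd34-low BFUE (4.51 to 5.5).

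The lower intermediate gate already had 4.31-fold less Smad3 than Cd34-low BFUE (3.91 to 4.76), with ratios of 0.0909 for rows A to D against 0.514 for rows E to H. The upper gate then had more Smad3 than the lower one, a ratio of 1.91 (1.72 to 2.12). This held in rows A to D (4.57) but not in rows E to H (0.995). CFUE was 2.2-fold lower than the upper gate (1.99 to 2.45), in rows A to D (0.527) and also for rows E to H (0.353). Between the BFUE classes Smad3 was 1.7-fold lower in the Cd34-high wells (1.54 to 1.88), and leaving out either of 2 wells took this under 1.5-fold (ratio 0.674 without the Cd34-high well F1 and 0.693 without the Cd34-low well A3). In rows E to H the ratio was 0.936.

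Smad5, the BMP-regulated Smad known for its part in stress erythropoiesis of the mouse, was at 42.9, 8.24, 11.9, 18.4 and 5.39 CPM from Cd34-high BFUE to CFUE. It had 10 reads in 5 of 8, 7 of 15, 10 of 21, 14 of 24 and 5 of 23 wells. Well H2 of Cd34-high BFUE held 207 CPM, 57.4% of the reads of its group. The Cd34-high over Cd34-low ratio was 5.21 (4.43 to 6.13), and 2.52 without that well. CFUE was 3.55-fold lower than BFUE (3.02 to 4.18), or 2.2-fold lower without well H2. Against Cd34-low BFUE, where both groups were under 10 CPM, the ratio was 0.654 (0.535 to 0.798) on 191 and 216 reads.

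Smad5 differed more clearly late in the series. CFUE was 3.41-fold lower than the upper intermediate gate (2.9 to 4.03), at 5.39 against 18.4 CPM, with ratios of 0.226 for rows A to D and 0.375 for rows E to H. The wells ran from 0 to 38.5 CPM with a median of 0 in CFUE, and from 0 to 52.8 CPM with a median of 13.7 CPM in the upper gate. The upper over lower intermediate ratio of 1.54 (1.35 to 1.75) lay at the edge of 1.5-fold, and leaving out any of 20 wells took it under. It was 1.65 in rows A to D and 1.43 for rows E to H.

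The last members were nearly absent from the counts. Smad4, the common partner of the other Smads, was at 0.621 to 2.76 CPM in the 5 groups, and reached 10 reads in 1 well of each. Its reads numbered 33, 46, 26, 27 and 22 from Cd34-high BFUE to CFUE. Smad7, the inhibitory Smad, had 0 reads in all kept BFUE and lower intermediate wells, 64 reads in 3 upper intermediate wells (11.3, 11.4 and 20.3 CPM) and 48 reads in 1 CFUE well (23.3 CPM). A count of 0 allows up to 0.0786 CPM in BFUE and 0.0966 CPM in the lower gate, by 3 counts over the group. With the lower gate set at that floor, the upper over lower ratio was 18.2, on 3 wells and without an interval. Sparse detection in single cells cannot be told apart from a low transcript level here.

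**Figure D3:**
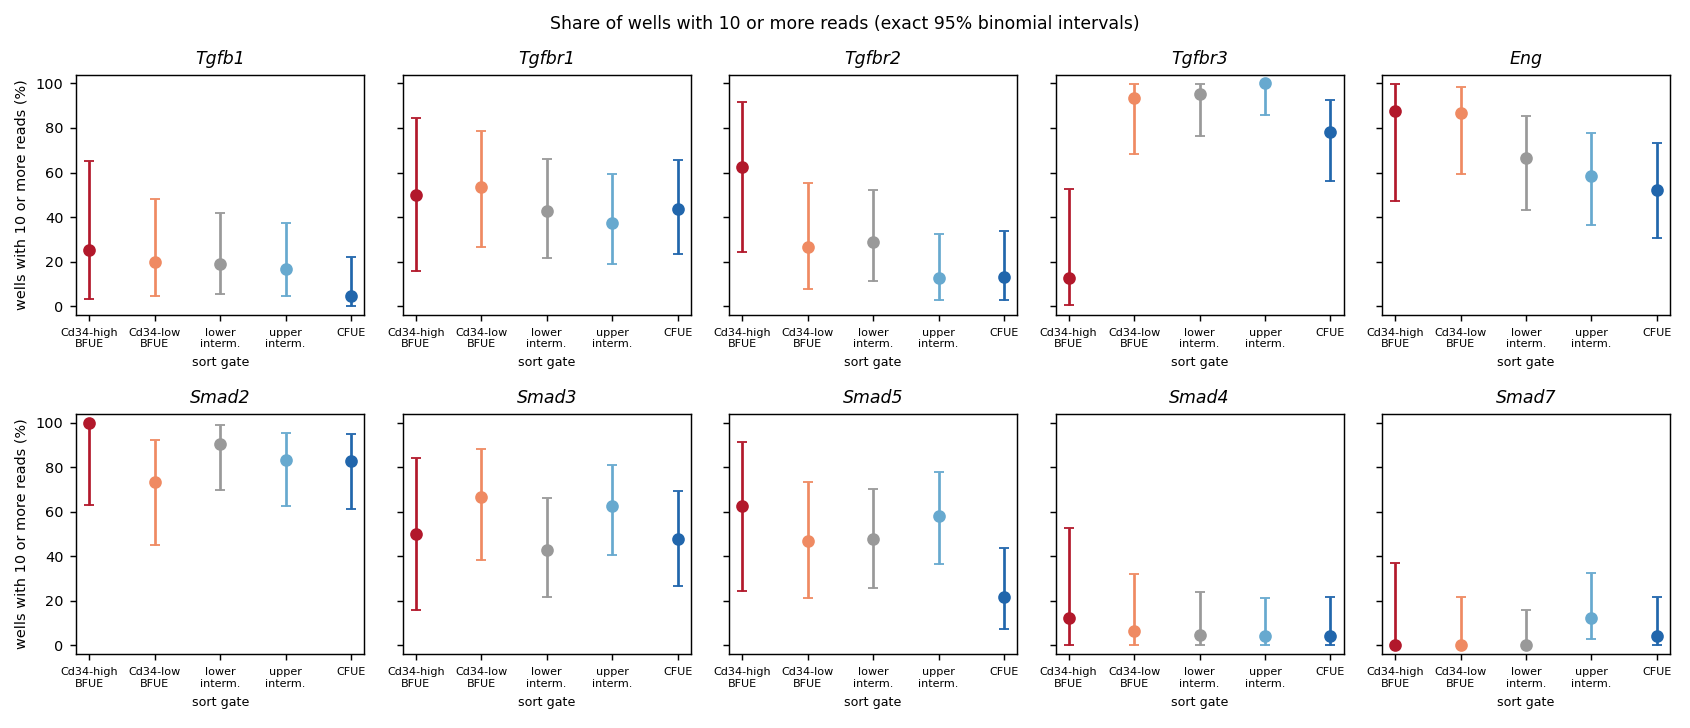
Share of kept wells with 10 or more reads of each gene in the 5 groups, with exact 95% binomial intervals, as percent of wells. Tgfbr3 is found in 12.5% of Cd34-high BFUE wells but in 78.3 to 100% of the wells of the other groups, and Tgfbr2 in 62.5% of Cd34-high BFUE wells but in at most 28.6% elsewhere.

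Levels can be set between genes only per length of exon. Per kilobase, Tgfbr3 led in Cd34-low BFUE at 16.6 CPM, ahead of Smad3 at 13, Eng at 11.3 and Smad2 at 5.34 CPM per kilobase. In Cd34-high BFUE Eng led at 44.2 CPM per kilobase, with Smad2 at 12.8, Smad3 at 7.64, Tgfbr2 at 7.1 and Tgfbr3, mostly from well E3, at 6.95. In CFUE the order was Eng at 9.72, Tgfbr3 at 6.66, Smad2 at 4.57 and Smad3 at 2.62 CPM per kilobase. The exon lengths are those of all annotated exons, so the true transcript length in these cells may be shorter.

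Few wells held both signalling receptors, each of which was by itself found in a minority of the 91 wells. Tgfbr1 and Tgfbr2 both had 10 reads in 12 of 91 wells, 2 of 8, 3 of 15, 4 of 21, 2 of 24 and 1 of 23 from Cd34-high BFUE to CFUE. All 12 also held Smad2, which most wells of every group held. No count of genes found together was set beside the number that detection of each gene alone would give. The co-receptors Tgfbr3 and Eng were found together in 50 of 91 wells, in 1 of 8 Cd34-high BFUE wells, 12 of 15 Cd34-low BFUE wells, 13 of 21 and 14 of 24 intermediate wells and 10 of 23 CFUE wells. Tgfbr1, Tgfbr2 and Tgfbr3 were found together in 9 wells, none of them Cd34-high. Smad2 and Smad3 were found together in 41 of 91 wells. A median well held 4 of the 10 genes, with a range of 0 to 8.

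The members were then counted together. A gene counted as measured at 10 CPM or more in either group, and as lower or higher at 1.5-fold or more. In CFUE against BFUE, 7 of the 10 genes were measured, and 6 were lower (Tgfbr2, Tgfbr3, Eng, Smad2, Smad3 and Smad5) and 0 higher, where of 8701 genes 29.6% were lower and 13.7% higher. Tgfbr2 and Smad5 were measured through BFUE alone, and of the 5 members at 10 CPM or more in both groups 4 were lower. The shares of all genes at 10 CPM or more in both groups were not counted. The median log2 ratio was -1.15 for the 7 genes and -0.14 for all genes. Under TMM scaling, which adds 0.13 to every log2 ratio of this comparison, the same 6 genes were lower, while 25.4% of all genes were lower and 18.3% higher. No test was made of any of these counts.

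Without the Cd34-high wells most of these differences were smaller. In CFUE against Cd34-low BFUE, 5 genes were measured, and Tgfbr3 and Smad3 were lower, against a background of 24.9% lower and 13.6% higher of 8246 genes. Eng, Smad2 and Tgfbr1 lay within 1.5-fold (ratios 0.861, 0.855 and 1.14). By plate rows, Smad2 was lower in rows A to D (0.603) and Tgfbr1 higher in rows E to H (1.6). Tgfbr2 and Smad5 were under 10 CPM in both groups. The median log2 ratio was -0.23 for the 5 and -0.11 for all genes. Under TMM scaling 20.9% of genes were lower and 17.3% higher, and under DESeq2 size factors 20.8% and 17.5%, again with Tgfbr3 and Smad3 lower.

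Step by step, the counts were as follows. In the lower intermediate gate against Cd34-low BFUE, 2 of 7 measured members were lower (Tgfbr3 and Smad3) and 1 higher (Tgfbr2), where 17.7% of all measured genes were lower and 9.54% higher. Under TMM or DESeq2 scaling Tgfbr3 was no longer among the lower ones there, and Smad5 joined the higher ones. Tgfbr2 and Smad5 were under 10 CPM in Cd34-low BFUE and so were measured through the lower gate alone. In the upper against the lower intermediate gate, 3 were lower (Tgfbr1, Tgfbr2 and Eng) and 2 higher (Smad3 and Smad5). Of all measured genes, 9.27% were lower and 7.34% higher. Tgfbr1 and Tgfbr2 were measured there through the lower gate alone. In CFUE against the upper gate, 2 of 6 were lower (Smad3 and Smad5) and 1 higher (Tgfbr1). Of all measured genes, 9.7% were lower and 7.98% higher. Smad5 was measured there through the upper gate alone and Tgfbr1 through CFUE alone. In Cd34-high against Cd34-low BFUE, 5 of 7 were higher (Tgfbr1, Tgfbr2, Eng, Smad2 and Smad5) and 2 lower (Tgfbr3 and Smad3), where 30.4% were higher and 25.4% lower. Tgfbr2 and Smad5 were measured there through the Cd34-high wells alone. Of the 5 members at 10 CPM or more in both classes 3 were higher and 2 lower, with no count of all genes under that filter. These comparisons share groups, so their counts are not independent.

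**Figure D4:**
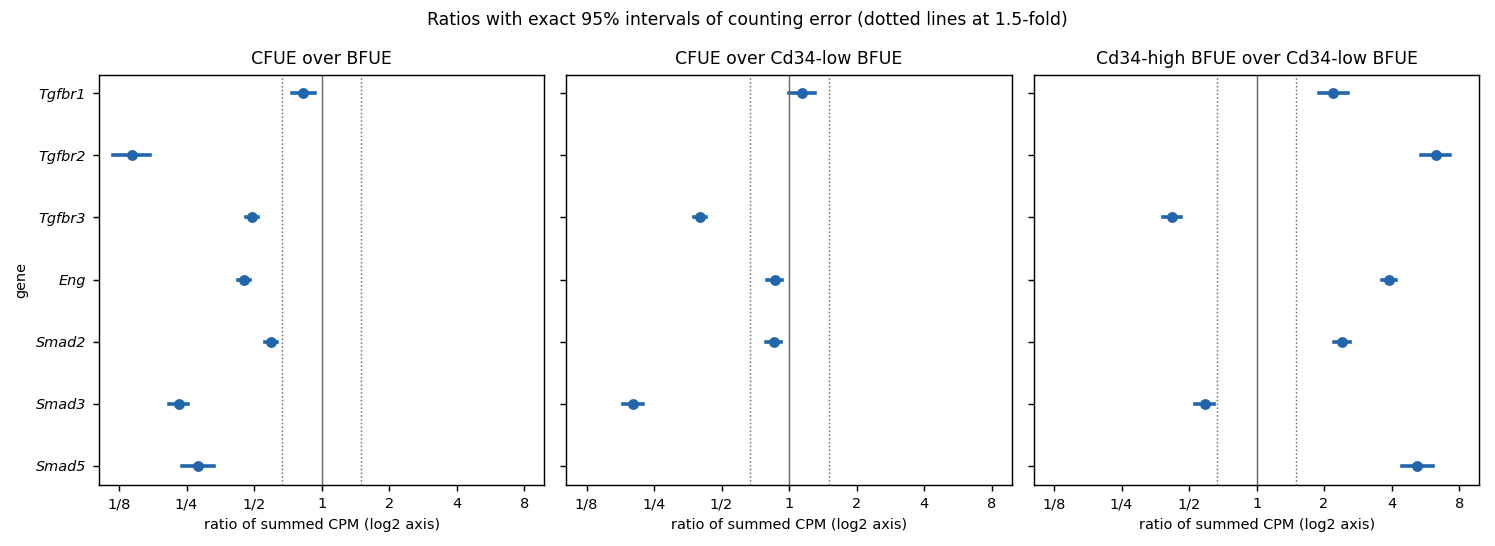
Ratio of summed CPM (x axis, log2 scale) for each member at 10 CPM or more in either group, in 3 comparisons, with exact 95% intervals of counting error and dotted lines at 1.5-fold. In CFUE over BFUE 6 of 7 genes lie under the lower line, in CFUE over Cd34-low BFUE Tgfbr3 and Smad3 do, and in Cd34-high over Cd34-low BFUE 5 genes lie above the upper line.

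The other genes of the pathway were taken from a list of 88 in 7 roles. In CFUE against Cd34-low BFUE, 26 were measured, of which 6 were higher and 6 lower, where 13.6% of all measured genes were higher and 24.9% lower. All 6 higher genes were under 10 CPM in Cd34-low BFUE and so were measured through CFUE alone, and 3 of the 6 lower ones were measured through Cd34-low BFUE alone. Of the 17 pathway genes at 10 CPM or more in both groups, 0 were higher and 3 lower. Under that filter the shares of all genes were not counted. Without well D10, 4 of 24 measured genes were higher and 6 lower. The median log2 ratio of the 26, in part set by which group a gene was measured through, was 0.06, beside -0.11 for all genes. Among ligands only Gdf3 was measured, at 54.8 CPM in CFUE and 125 CPM in Cd34-low BFUE, 2.28-fold lower. It was present with 10 reads in all 15 Cd34-low BFUE wells and in none of the 8 Cd34-high wells, whose highest value was 5.56 CPM. Of the genes for latent TGF-beta, Ltbp1, which tethers the latent ligand in matrix, was 5.39-fold lower in CFUE (4.56 to 6.39), and Nrros, which holds latent TGF-beta on myeloid cells, 3.01-fold lower (2.82 to 3.22). The Ltbp1 ratio was 0.241 in rows A to D and 0.0245 for rows E to H. Nrros was at 381 to 745 CPM in every Cd34-high well, against 3.1 to 339 CPM in the Cd34-low wells.

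Among Smad regulators 3 of 14 measured genes were higher in CFUE and 2 lower, and each of these 5 was under 10 CPM in the group where it was low. Foxh1, a DNA-binding partner of Smad2 and Smad3, was at 25.4 CPM in CFUE, against 0.649 CPM in Cd34-low BFUE. It had 10 reads in 0 of 8 Cd34-high and 1 of 15 Cd34-low BFUE wells. In the lower gate, the upper gate and CFUE it had them in 5 of 21, 12 of 24 and 15 of 23 wells. Trim33, which in human blood progenitors competes with Smad4 for Smad2 and Smad3, was 2.87-fold higher in CFUE (2.43 to 3.4), and 1.58-fold without well D10. Ppm1a, a phosphatase of Smad2 and Smad3, was 6.82-fold higher (5.23 to 9.04), with ratios of 28 in rows A to D and 1.94 for rows E to H. Well D10 gave 52.9% of its CFUE reads. Without that well Ppm1a was under 10 CPM in both groups and so not measured, at a ratio of 3.3. Tgif1, a corepressor of Smads, was 4.78-fold lower (4.09 to 5.6; 0.305 in rows A to D and 0.109 for rows E to H), and Tgif2, its relative, 2-fold lower (1.66 to 2.43).

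In the remaining roles few genes passed 1.5-fold. In the non-Smad branch, Map3k7 (TAK1) was 4.57-fold higher in CFUE than in Cd34-low BFUE (6.92-fold without well B3), and its adaptor Tab3 was 2.38-fold higher (3.59-fold without well G2). The Tab3 ratio was 6.66 in rows A to D and 1.46, under 1.5-fold, for rows E to H. The Map3k7 ratio was 3.33 and 7.38 in the same rows, while Mapk14 (p38 alpha) had a ratio of 0.676 and Tab2 was under 10 CPM. The activin receptor gene Acvr2a had 438 reads in CFUE, of which 81.5% came from well D10, against 1 read in Cd34-low BFUE. The decoy receptor gene Bambi was under 10 CPM in both groups. Among response genes, 1 of 3 measured was lower: Runx1, a transcription factor of blood progenitors, at 19.8 CPM in CFUE and 44 CPM in Cd34-low BFUE, 2.22-fold lower (2.02 to 2.44). Klf10 and Junb, both induced early by TGF-beta, had ratios of 0.892 and 1.4.

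In Cd34-high against Cd34-low BFUE, 26 of 37 measured pathway genes were higher and 2 lower, where 30.4% of all measured genes were higher and 25.4% lower. Of the 26, 17 were measured through the Cd34-high wells alone, and both lower genes, Gdf3 and Ltbp1, through the Cd34-low wells alone. Of the 17 pathway genes at 10 CPM or more in both classes, 9 were higher and 0 lower. Under that filter the shares of all genes were not counted. The median log2 ratio of the 37, in part set by which class a gene was measured through, was 1.32, beside 0.03 for all genes. Among response genes, Runx1 had a ratio of 3.73. Junb had a ratio of 1.8, with 1.05 without well H2, 0.789 in rows A to D and 2.09 for rows E to H. Klf10 had a ratio of 1.69, with 1.19 without well E2, 0.859 in rows A to D and 2.59 for rows E to H. Id1 had a ratio of 5.47 (3.41 without well E3) but was measured through the Cd34-high wells alone. So were Cdkn1a, Cdkn1c, Id2 and Id3, named after their values were seen, of which Id2 and Id3 had 0 reads in the Cd34-low wells. Of the members, Tgfbr1, Tgfbr2, Eng, Smad2 and Smad5 had higher summed levels in Cd34-high BFUE too. Tgfbr3 and Smad3 had lower ones, and Smad7 had 0 reads in both classes. The neutrophil, monocyte and lymphoid markers given above were also higher in Cd34-high BFUE, and their part in these values was not tested.

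**Figure D5:**
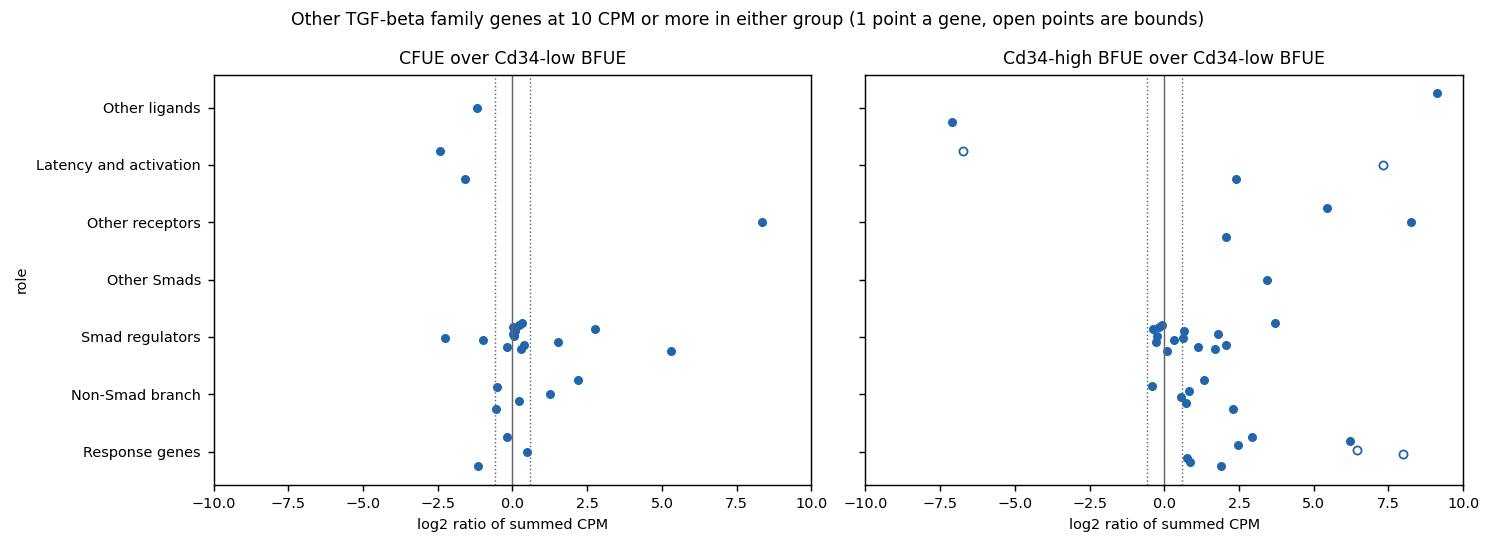
Log2 ratio of summed CPM (x axis) for the other pathway genes at 10 CPM or more in either group, by role, with 1 point a gene, dotted lines at 1.5-fold and open points for bounds against a floor of 3 counts. Genes lie on both sides in CFUE over Cd34-low BFUE (6 higher and 6 lower of 26) and in Cd34-high over Cd34-low BFUE (26 higher and 2 lower of 37), where 17 of the 26 were measured through the Cd34-high wells alone.

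Rank correlations between members from well to well were weak. Smad4 and Smad7 had no reads in nearly all wells, and several other members had none in many. Such ties limit rho, so these values cannot show whether the members vary together. Over the 45 pairs of members and 91 wells, Spearman rho ran from -0.16 (Tgfbr3 with Smad2) to 0.24 (Tgfbr2 with Smad2), and over the 83 wells without Cd34-high BFUE from -0.22 to 0.22. Among 8141 genes with 10 or more reads in 20 or more wells, those most like Tgfbr3 were Gtpbp4 at a rho of 0.45, Dsn1 at 0.44, Gp5 and Mindy1 at 0.43 and Pola1 at 0.42. None of these 5 was among the top 5 by Pearson r or without the Cd34-high wells, where Klhl6 led at 0.47. Among genes most like other members were Tmem161b for Tgfbr1 (0.47), Fkbp1a for Tgfbr2 (0.45), Pnrc1 for Eng (0.45), Spg21 for Smad2 (0.44) and Dnmt3a for Smad5 (0.44). Without the Cd34-high wells these were 0.41, 0.41, 0.38, 0.36 and 0.47 in that order. Fkbp1a, which binds type I receptors and keeps them inactive, is itself on the pathway list. These are weak values in sparse counts that share a plate and differ in depth, and they are given as a description only.

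In position most of the genes lie apart, but Smad4, Smad7 and Smad2 lie near each other on chromosome 18. In GRCm38 these Smad genes span 73639009 to 73703780 (Smad4), 75367529 to 75395935 (Smad7) and 76241580 to 76310963 (Smad2). The other members lie on chromosome 7 (Tgfb1, 25687002 to 25705077), chromosome 4 (Tgfbr1, 47353222 to 47414931), chromosome 9 (Tgfbr2, 116084293 to 116175360, and Smad3, 63646767 to 63757994), chromosome 5 (Tgfbr3, 107106570 to 107289629), chromosome 2 (Eng, 32646595 to 32682669) and chromosome 13 (Smad5, 56703010 to 56742377). Tgfbr3 shares exon bases with the unclassified gene Gm43422, which had 14 reads in all kept wells against 9039 for Tgfbr3, and Smad5 with Gm27301, which had 0.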

How the data were processed

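Single cells from 96 wells of 1 plate were measured by Smart-seq2. The deposited values are whole-number read counts per gene without normalisation. The submitters' processing notes name STAR 2.4, featureCounts and the build GRCm38. Not given in the sources used here are the annotation release, whether counting used strand, and how reads common to several genes were handled. Because the header has 1 more cell (empty) than the lines of data, sample names were assigned to the count columns in sequence. Coordinates (1-based) and exon lengths come from GENCODE M21, which holds 99.7% of the identifiers in the table.

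The 10 members and all lists were chosen with earlier results of these data known. A kept well had at least 50000 reads and at least 1000 genes with a read. Doublets were not called, since each well was sorted as 1 cell. Counts were summed over the kept wells of a group and given as CPM with an exact Poisson interval, ratios with an exact conditional binomial interval and shares with a Clopper-Pearson interval, at 95% and for counting error only. A group at 0 stood at a floor of 3 counts. Each gate is 1 sample and wells are not replicates, so no test was made. The ratio script was checked on simulated data.

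Named genes were the 10 members, up to 4 genes per role of the pathway list with 10 CPM or more in an end gate and the largest CFUE over Cd34-low BFUE ratio, and the 5 genes with the highest Spearman rho with a member, of which the text names 5 for Tgfbr3 and at most 1 for any other member. Not every gene this rule selects is reported here. Other genes were named after their values were seen. The alternatives tried were scaling in R 4.3.3 by TMM from edgeR 4.0.16 or by size factors from DESeq2 1.42.0, a mean over the CPM of wells, other filters, totals and folds, the upper or lower plate rows alone, thinning to 500000 reads and wells left out. Leaving out the Cd34-high well with the most Tgfbr3, counting genes at 10 CPM or more in both groups, and counting without the CFUE well D10 were added after seeing the data. Scripts ran in Python 3.11.15 with scipy 1.17.1, numpy 2.4.6, matplotlib 3.10.9 and pandas 2.3.3.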

Additional observations from a re-analysis of the deposited data

Results flagged for a closer look

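In 3 cases the highest of the 8 Cd34-high BFUE wells stood far from the rest of its group, by the gap to its neighbour over the range of the group. Chance marks about 1 in 20 groups in this way where values are normally distributed. How often it does so in skewed counts with many zeros was not measured, and 10 genes were looked at in this group of wells. For Tgfbr3, well E3 held 305 CPM, with the next well at 5.56 CPM. For Smad5, well H2 held 207 CPM, with the next at 82.6 CPM. For Smad4, well E3 held 13.8 CPM, with the next at 6.46 CPM, both on few reads (24 and 9).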

How the results depend on the processing

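The Tgfbr3 ratio of CFUE over BFUE was 0.491 and stayed below 1 under every alternative run. It was 0.537 with TMM factors, 0.535 with DESeq2 size factors, 0.44 in plate rows A to D, 0.545 in rows E to H and 0.462 after thinning. It was 0.53 without the well with the most Tgfbr3 reads in each group, and between 0.469 and 0.556 with 1 well left out. The Tgfbr3 ratio of the lower intermediate gate over Cd34-low BFUE was 0.641, with 0.682 under DESeq2 size factors. It was 0.695 without the well with the most Tgfbr3 reads in each group, and between 0.59 and 0.73 with 1 well left out. The count of 6 members lower and 0 higher in CFUE against BFUE was the same with each well left out (6 and 0), and the lower count was 7 in plate rows A to D against 5 for rows E to H. It was 4 at 50 CPM or more, where 4 genes were measured, 5 at 2-fold and 8 with no filter on CPM, where 1 member, Smad7, was higher.

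Among ratios of the 10 members past 1.5-fold, the direction turned round in 3. The ratios of the other pathway genes are not in this count. The Tgfbr1 ratio of the upper over the lower intermediate gate was 1.36 in rows A to D, and the Smad3 ratio of the same gates 0.995 in rows E to H. The Tgfbr3 ratio of Cd34-high over Cd34-low BFUE was 1.02 in rows E to H, which hold well E3. The causes of the other differences between plate rows were not tested. Of 389 other values under alternatives, for 37 member ratios, 278 lay within the counting interval of the reported ratio. A further 108 moved beyond it, some across 1 where the ratio was within 1.5-fold, and 3 are those just named. Splitting BFUE at 10 CPM of Cd34 gave the same 8 and 15 wells. No paired analysis was possible because well numbers were given in accession order and pair no cells across gates. Tgfb1, Smad4 and Smad7 were under 10 CPM in every group, so their ratios rest on few reads.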
